A study of Homo sapiens with 11 samples.

Results

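Oct4, the homeodomain transcription factor encoded by POU5F1, was expressed alone in ARPE-19 cells, and the RNA of that line was compared with the RNA of a line expressing green fluorescent protein (GFP). ARPE-19 is an established human line derived from retinal pigment epithelium (RPE), the pigmented cell layer that supports the photoreceptors. All lines of the series were stable ARPE-19 lines taken after 4 days of expression of their open reading frame. GFP was the control in 3 libraries (replicates 1 to 3) and Oct4 was measured in 2 (replicates 1 and 2), so this comparison uses 5 of the 11 libraries. The other 6 are 2 each of lines expressing Sox2, Klf4 or the combination of Oct4, Sox2 and Klf4 (OSK). They entered the same fit and are cited only where the Oct4 line is set directly against them. A gene was tested when it had a normalised count of at least 10 in at least 2 of the 11 libraries, which 18828 of 60605 listed features did. In the library names all factor lines carry the letters mC and the GFP control does not. Whatever mC stands for, its part in the differences cannot be told apart from that of the factor. The labels name no clone, no separate cultures, no batch and no species of origin for the Oct4 reading frame, so p-values measure only the spread between these libraries, which may be technical.

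Oct4 binds a short DNA element, the octamer, through its POU-specific domain and its homeodomain, and in pluripotent stem cells it does so beside SOX2 at genes that keep those cells undifferentiated. It is one of the factors used to reprogram differentiated cells, where it acts with SOX2 and KLF4. RPE cells are kept pigmented by the transcription factors MITF and OTX2, which drive melanin enzymes such as tyrosinase, and they also handle retinoids, secrete anti-angiogenic proteins and lay down basement membrane. When RPE cells lose that state they are known to take on contractile, matrix-producing features under TGF-beta.

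Library depth was close to even, with 15566391 to 18125321 reads in the 5 libraries. GFP replicate 1 stood apart from the rest. It had reads on 42956 features against 26390 to 26628 in the other GFP and Oct4 libraries, and on 67.7% of 405 olfactory receptor genes against 6.91% to 8.15%. Results are therefore also given without it. The RPE label was checked against 15 markers. Summed over those, the GFP libraries had 33627 to 37314 normalised counts and the Oct4 libraries 18656 and 19252. Most of that sum came from the keratins KRT8 and KRT18, PMEL, MITF, TYRP1 and OTX2. RPE65, the visual cycle isomerase of mature RPE, had at most 0.99 in any of the 5 libraries, and TTR at most 4.97, so these defining markers of mature RPE were at or near 0 in both lines. Of 5 tested melanocyte markers 0 were called by limma, edgeR or DESeq2, and 1 had an unadjusted limma p under 0.05. By limma 37.3% of all genes tested were called, and 13.6% of those with a mean under 50 over the 5 libraries. Without GFP replicate 1, 2 of the melanocyte markers were called higher, beside 20.5% of all genes. The median log2 change of these markers went from 0.56 to 0.95. Their list summed to 155, 34.4 and 40.8 in the GFP libraries and 88.3 and 79.0 in the Oct4 libraries, with SOX10, the defining factor, at 4.64 and 1.14 in the Oct4 libraries and PAX3 at 0.

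The delivered gene was measured first. POU5F1 had 276, 252 and 262 normalised counts in the GFP libraries and 67326 and 66823 in the Oct4 libraries, a log2 change of 7.99 (SE 0.17; limma adjusted p = 4.17e-14). Its processed copies POU5F1P3 and POU5F1P4 rose with it: POU5F1P3 had 11.9, 4.05 and 3.89 in GFP and 613 and 584 in Oct4. Since these copies are nearly identical to the parent gene and the counting of shared reads is not given in the sources used here, their values are uncertain, as are the low POU5F1 values in GFP. The partner factors rose from low levels. SOX2 went from 82.4, 59.7 and 43.7 in the GFP libraries to 197 and 179 in the Oct4 libraries, and KLF4 from 124, 45.5 and 46.7 to 248 and 242. The KLF4 change was 1.92 on the log2 scale over all libraries and 2.39 without GFP replicate 1, whose KLF4 value was the highest of the 3. These levels were small beside those of the lines that received the genes, where SOX2 averaged 29123 in the Sox2 line and KLF4 23173 in the Klf4 line.

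Among endogenous pluripotency genes, 31 listed and 16 tested, 0 were called higher and 3 lower, against 20.1% and 17.2% of all genes tested (limma). By edgeR, by DESeq2 and at an unadjusted limma p under 0.05 the number higher was also 0. NANOG, the core factor of the network, had 16.9, 14.2 and 14.6 in the GFP libraries and 5.81 and 8.01 in the Oct4 libraries. LIN28A, an RNA-binding protein that blocks let-7 maturation, had 311, 279 and 224 in GFP and 196 and 221 in Oct4 (log2 change -0.37, SE 0.19, limma adjusted p = 0.152). Here and in what comes after, a value in brackets behind a gene is its log2 change from GFP to Oct4 unless another line is named. The members that fell were KLF2 (-1.38), PODXL (-1.20), which encodes the sialomucin podocalyxin, and DNMT3B (-0.39), a de novo DNA methyltransferase. The DNMT3B call rested on each of GFP replicates 1 and 2 and both Oct4 libraries, since it ended when any of these was left out (limma adjusted p = 0.133 without GFP replicate 1, 0.15 without GFP replicate 2, 0.0678 and 0.304 without Oct4 replicates 1 and 2). Among 32 other chromatin writers and erasers, 7 rose (21.9%, beside 20.1% of all genes) and 2 fell (6.25%, beside 17.2%). The count that fell was 0 without GFP replicate 3 and 1 without GFP replicate 2 or either Oct4 library. The risers included the H3K4 demethylase KDM5B (0.85), the 5-methylcytosine oxidase TET2 (0.83) and the H3K27 demethylase KDM6A (0.83).

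Beyond the delivered gene, 7018 of 18828 genes (37.3%) differed between the Oct4 and GFP lines at an adjusted p under 0.05 (limma), 3780 higher (20.1%) and 3238 lower (17.2%). A change of at least 2-fold was reached by 1350 of the higher genes (7.17% of those tested) and 723 of the lower (3.84%). The median size of a called change was 0.62 on the log2 scale, and the median over all genes was -0.02. Both Oct4 libraries lay above all GFP libraries in 5456 genes (29.0%) and below all of them in 5166 (27.4%). In bulk RNA, a change in every cell and a change in the share of cells that express a gene cannot be told apart. Precision followed depth. Of 6462 genes with a mean under 50 over the 5 libraries, 13.6% were called and the median SE was 0.55 log2 units, while of 5912 genes from 500 to 5000, 56.4% were called with a median SE of 0.08. Without GFP replicate 1, 3857 genes were higher (20.5%) and 3362 lower (17.9%). These include 3460 of the 3780 higher calls and 2948 of the 3238 lower ones, and 0 reversed. Protein-coding genes were called higher in 23.4% and lower in 20.7% of 13737, and long non-coding RNA genes in 14.4% and 11.1% of 1107.

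**Figure D1:**
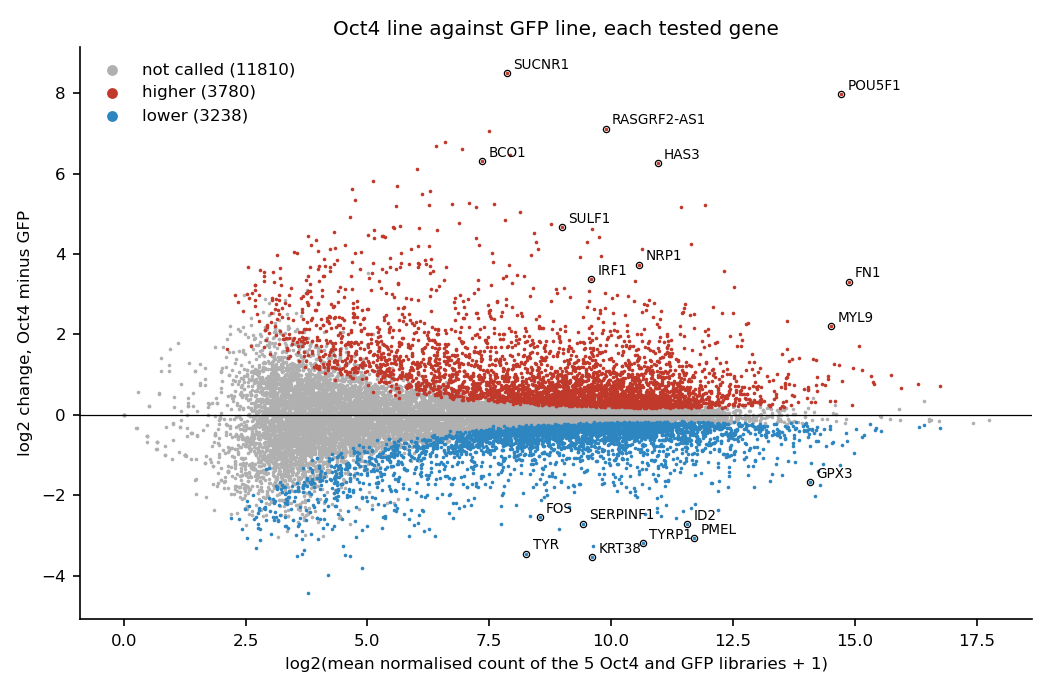
Log2 change between the Oct4 and GFP lines (y axis) against the log2 mean normalised count of the 5 libraries (x axis), 1 point per tested gene, red for the 3780 called higher, blue for the 3238 called lower and grey for the rest. POU5F1 stands at 7.99 at a high mean level, and SUCNR1, RASGRF2-AS1 and HAS3 lie above 6, whereas the labelled falls of KRT38, TYR and TYRP1 lie between -3.55 and -3.19.

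Among genes with a mean of at least 50 in the higher group, from which the largest changes were named, the largest rises were mostly in genes nearly silent in GFP cells. SUCNR1, the G protein-coupled receptor for succinate, had 2.98, 0 and 0 normalised counts in the GFP libraries (3 reads in all). In the Oct4 libraries it had 579 and 570.0 (997 reads), a ratio of 579 with an exact 95% counting interval of 198 to 2814. That interval covers counting error alone and not the spread between libraries, and all 3 GFP reads came from replicate 1. LRRC31, which encodes a leucine-rich repeat protein of epithelia, had 3.97, 0 and 0.97 in GFP and 216 and 256 in Oct4. BCO1, the enzyme that cleaves beta-carotene into retinal, had 14.9, 1.01 and 2.92 in GFP and 388 and 406 in Oct4, and PLEK2, a pleckstrin-family regulator of the actin cytoskeleton, 9.93, 0 and 0 in GFP and 107 and 121 in Oct4. In all 4 genes the highest GFP value came from replicate 1. Without it the fitted log2 changes went from 8.50 to 9.17 for SUCNR1, from 6.79 to 7.40 for LRRC31, from 6.31 to 7.15 for BCO1 and from 5.69 to 6.84 for PLEK2. Without GFP replicate 2 that of BCO1 was 5.66. Such fitted changes depend on the pseudocount of 1.

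HAS3, a synthase of the matrix polysaccharide hyaluronan, rose from a measurable level: it had 79.4, 44.5 and 63.2 in the GFP libraries and 3825 and 5909 in the Oct4 libraries (log2 change 6.27, SE 0.27; limma adjusted p = 7.3e-11). The antisense gene RASGRF2-AS1 had 10.9, 13.2 and 25.3 in GFP and 1856 and 2819 in Oct4. The intergenic RNAs LINC02535 and LINC02700 had at most 2.98 in any GFP library and, in the Oct4 libraries, 172 and 242 (LINC02535) and 157 and 156 (LINC02700). The LINC02700 change went from 6.11 to 5.52 without GFP replicate 2. Use of strand in the counting is not given in the sources used here, so the reads of the antisense gene cannot be told apart from those of the gene it overlaps. RN7SL5P, a copy of the 7SL RNA gene, also ranked among the 12 largest rises (5.82), but its close copies make it uncertain and its call ended without Oct4 replicate 1 (limma adjusted p = 0.0679). SUCNR1, LRRC31, LINC02535, LINC02700 and PLEK2 are among 114 tested genes that reached 10 in the Oct4 libraries alone, so the filter fixed that they were higher there than in the other lines, and those differences are given as a description. SUCNR1 averaged 3.92 with Sox2 expressed, 0.58 with Klf4 and 7.10 with all factors, although POU5F1 averaged 19281 in OSK.

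**Figure D2:**
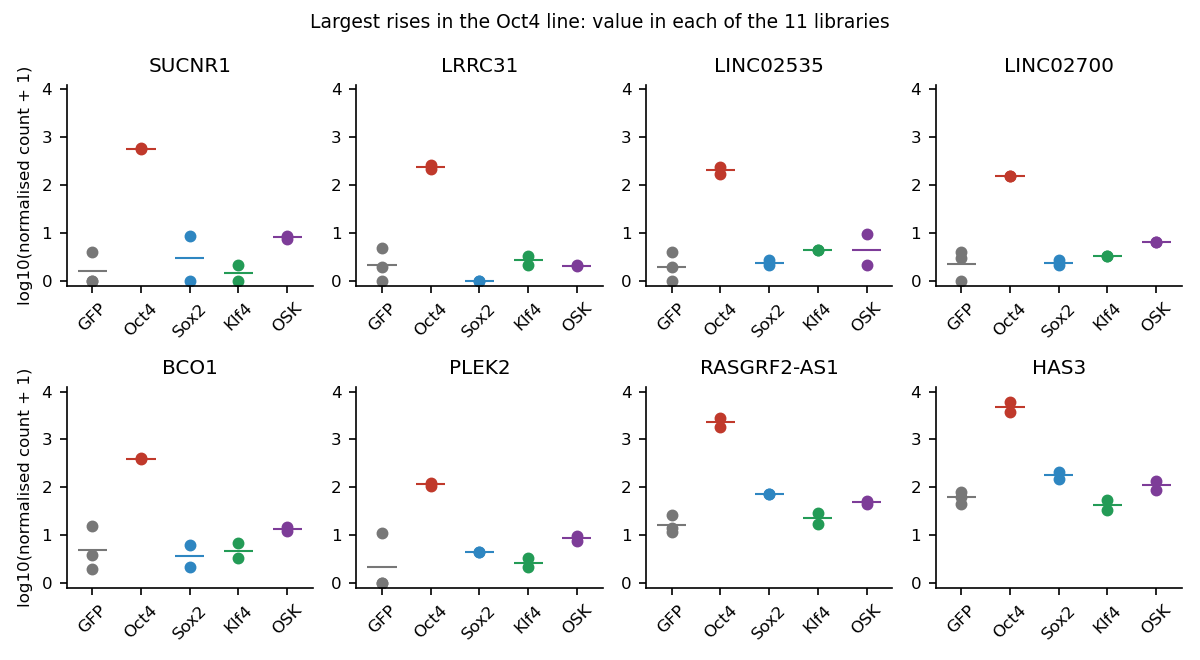
Normalised counts (log10 of the value plus 1, y axis) of 8 of the largest rises in each of the 11 libraries, by line (x axis), with points for libraries and bars for the mean of the plotted values. In every panel both Oct4 libraries lie above all 9 other libraries, and HAS3 reaches 3825 and 5909. The naming rule asked for the separation from GFP.

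The promoters of these genes were searched for the octamer, ATGCAAAT, on both strands in the 250 bases before the RefSeq start (GRCh38.p14). Of the 12 largest rises 8 had a promoter in the RefSeq table, and 2 of those, SUCNR1 and LINC02535, held the octamer. It was present in 1.66% of all 27305 promoters and in 1.34% of 12054 from tested genes. Promoters of genes called at least 2-fold higher held it in 1.52% of 856, and of those at least 2-fold lower in 2.89% of 415. For genes not called the share was 1.32% of 6832. The 12 genes were picked by the size of their rise, and both that matched are among the 114 admitted through the Oct4 libraries alone. Their number is therefore given as a description. Both matching promoters are shown because they hold the octamer, and they were chosen after their values were seen. That of SUCNR1 lies at chr3:151873393-151873642 on the plus strand and that of LINC02535 at chr6:85404803-85405052 on the minus strand. Both are written 5′ to 3′ along the gene with the octamer, or its reverse complement, in capitals. The SUCNR1 copies begin 60 and 47 bases before the start, and the LINC02535 copy 84 bases before it.
SUCNR1: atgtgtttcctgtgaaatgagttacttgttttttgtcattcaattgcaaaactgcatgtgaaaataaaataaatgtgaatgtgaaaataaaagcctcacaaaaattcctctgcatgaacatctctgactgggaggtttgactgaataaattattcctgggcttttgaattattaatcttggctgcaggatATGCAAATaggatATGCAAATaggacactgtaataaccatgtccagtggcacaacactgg
LINC02535: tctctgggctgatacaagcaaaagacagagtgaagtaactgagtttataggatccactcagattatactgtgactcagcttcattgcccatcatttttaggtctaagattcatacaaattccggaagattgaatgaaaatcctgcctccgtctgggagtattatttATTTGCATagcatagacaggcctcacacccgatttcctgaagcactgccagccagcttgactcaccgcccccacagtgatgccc
A match is a description of letters and not of binding, which was not measured.

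Pigment genes were among the largest falls. Of 22 tested pigmentation genes, 11 fell and 2 rose (limma), shares of 50% and 9.09% against 17.2% lower and 20.1% higher among all genes, with a median log2 change of -0.31. The melanin enzyme tyrosinase, TYR, had 349.6, 513 and 578 normalised counts in the GFP libraries and 29.0 and 60.7 in the Oct4 libraries, a log2 change of -3.45 (SE 0.36; limma adjusted p = 1.63e-06). TYRP1, the related melanosomal enzyme, had 2168, 2491 and 2813 in GFP and 236 and 312 in Oct4 (log2 change -3.19, SE 0.19). PMEL, whose fibrils form the melanosome scaffold, had 4094, 5281 and 6067 in GFP and 524 and 700.5 in Oct4 (log2 change -3.07, SE 0.20). The naming rule asked for groups that do not overlap, which fixed that all GFP libraries lay above both Oct4 libraries in these 3 genes. Such a separation on the lower side was seen in 27.4% of all genes tested. TRPM1, a cation channel gene that is known as a target of MITF, had 402, 775 and 1051 in GFP and 53.4 and 171 in Oct4. Its change of -2.84 became -2.01 without Oct4 replicate 1 and -3.67 without Oct4 replicate 2, and was called in both cases. MITF itself, the master factor of the pigment programme and one of the RPE markers, fell less, from 3263, 3354 and 3602 to 1786 and 1999.5 (-0.85, SE 0.07). The members that rose were the copper transporter ATP7A (0.51) and GPNMB (0.35), a melanosomal and lysosomal glycoprotein. GPNMB did not pass with only the 5 Oct4 and GFP libraries in the fit (limma adjusted p = 0.0507). In the Sox2 line TYR averaged 14.3 and PMEL 140.4, below the Oct4 line (Oct4 minus Sox2 1.58 and 2.16 on the log2 scale). In the Klf4 line they averaged 309.8 and 1269.7 (Oct4 minus Klf4 -2.79 and -1.06).

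MITF and related factors bind the M-box, searched here as TCATGTG on both strands. It was found in 2.58% of all promoters and in 5 of 21 promoters of the pigmentation list. Of the members that fell, 3 of the 7 with a promoter held it, TYR, TYRP1 and GPR143, as did GPNMB, which rose. The promoters of TYR (chr11:89177625-89177874, plus strand) and TYRP1 (chr9:12693135-12693384, plus strand) are shown because these genes had the largest falls of the list, with the M-box in capitals 105 and 145 bases before the start.
TYR: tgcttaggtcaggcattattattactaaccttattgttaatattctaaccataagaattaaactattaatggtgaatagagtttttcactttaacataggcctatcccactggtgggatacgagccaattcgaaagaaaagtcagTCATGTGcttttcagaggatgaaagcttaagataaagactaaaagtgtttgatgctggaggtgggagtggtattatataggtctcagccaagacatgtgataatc
TYRP1: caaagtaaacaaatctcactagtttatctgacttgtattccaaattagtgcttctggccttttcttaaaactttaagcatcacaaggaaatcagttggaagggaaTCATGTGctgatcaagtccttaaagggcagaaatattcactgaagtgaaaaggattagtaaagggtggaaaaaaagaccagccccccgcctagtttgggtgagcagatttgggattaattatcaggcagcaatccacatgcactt
The promoter of PMEL was not used here.

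Others of the 12 largest falls were in receptors, a channel and phosphodiesterases. SLAMF7, a cell-surface receptor of immune cells, had 1123, 1257 and 1336 in the GFP libraries and 127 and 129 in the Oct4 libraries (log2 change -3.26, SE 0.21; limma adjusted p = 6.04e-09). PDE4B, which degrades cyclic AMP, had 85.4, 69.8 and 109.8 in GFP and 9.29 and 10.3 in Oct4, and PDE6G, the inhibitory subunit of the rod photoreceptor phosphodiesterase, 94.3, 93.1 and 92.3 in GFP and 15.1 and 11.4 in Oct4. The potassium channel gene KCNK12 had 111, 106 and 128 in GFP and 12.8 and 18.3 in Oct4. The orphan receptor gene GPR62 (-2.81) and MROH2A (-3.02) also belong to the set, with KRT38 and the pigment genes. The rule that named these genes asked for groups that do not overlap, so all GFP values lay above both Oct4 values. Of 9 photoreceptor and neural retina markers 2 were tested, and NRL, a rod factor, was called higher by limma (1.11) but not by edgeR or DESeq2. SAG, CRX, PDE6H and GNAT1 had at most 1.01 in all of the 5 libraries except GFP replicate 1. KCNK12 averaged 21.6 in the Sox2 line, where it was not called against the Oct4 line (limma adjusted p = 0.34), while Klf4 cells averaged 118 (Oct4 minus Klf4 -2.87).

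Other functions of RPE moved in both directions. Of 26 tested genes of RPE function, 10 rose and 10 fell (median -0.35), with 9 and 11 without GFP replicate 1. The shares were 38.5% each way, beside 20.1% higher and 17.2% lower among all genes. SERPINF1, which encodes the secreted anti-angiogenic factor PEDF, had 850.0, 1008 and 1243 in the GFP libraries and 136 and 179 in the Oct4 libraries, a log2 change of -2.71 (SE 0.23; limma adjusted p = 1.12e-07). MFRP, a membrane protein needed for normal eye length, had 2626, 2072 and 2643 in GFP and 382 and 509 in Oct4, and BEST1, an anion channel gene, 87.4, 103 and 136 in GFP and 46.5 and 43.5 in Oct4. Rises were led by SULF1, an extracellular sulfatase that trims heparan sulfate, with 44.7, 57.7 and 36.0 in GFP and 1011 and 1381 in Oct4 (4.68, SE 0.18). The retinoid gene RDH10 (1.58), a retinol dehydrogenase, rose as well. The monocarboxylate transporter SLC16A8 (1.77) and the prostaglandin synthase PTGDS (-1.81) were called, but SLC16A8 did not pass without either Oct4 library (limma adjusted p = 0.0692 and 0.117) and PTGDS not without Oct4 replicate 1 (limma adjusted p = 0.0859). Among the 15 RPE markers, 13 were tested, 9 fell (69.2%, beside 17.2% of all genes) and 2 rose (15.4%, beside 20.1%). The risers were the retinol dehydrogenase RDH5 (1.28) and the phagocytosis receptor MERTK (1.28).

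Of 16 tested eye transcription factors, 8 fell (50%, beside 17.2% of all genes) and 4 rose (25%, beside 20.1%), with a median of -0.46. LHX2, a LIM-homeodomain factor needed for eye formation, had 2552, 2702 and 2759.7 in the GFP libraries and 995 and 889 in the Oct4 libraries (-1.50, SE 0.08). SIX3, a forebrain and eye field factor, had 2011, 2045 and 2002 in GFP and 1031 and 983 in Oct4, and SOX9 1511, 1651 and 1752 in GFP and 1044 and 925 in Oct4. PAX6, the eye field master gene, moved little, from 2939, 2758 and 2997 to 3232 and 3547 (0.23), and its call ended without Oct4 replicate 2 (limma adjusted p = 0.164). MAB21L2, a gene needed for lens and optic vesicle growth, was called at 2.65, with 5.96, 14.2 and 3.89 in GFP and 60.4 and 40.1 in Oct4, but not without Oct4 replicate 1 (limma adjusted p = 0.0605), and MAB21L1 rose by 0.39. Only 2 risers were called without Oct4 replicate 1, and likewise without Oct4 replicate 2. Among 25 tested SOX, POU and KLF family genes other than the delivered factors, 7 rose (28%) and 9 fell (36%). SOX5 rose from 55.6, 50.6 and 54.4 to 362 and 365 (2.74) and the POU family member POU6F1 from 129, 143 and 124 to 521 and 456 (1.88). SOX8 fell from 3335, 5271 and 5592 to 866 and 972 (-2.33), and the TGF-beta inducible genes KLF10 (-1.15) and KLF11 (-1.13) fell too.

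BMP signals pass through receptors of the TGF-beta superfamily to SMAD1, SMAD5 and SMAD9, which switch on the ID genes and the inhibitor SMAD6. Of 25 tested BMP pathway genes, 13 fell (52.0%, against 17.2% of all genes) and 7 rose (28%, against 20.1%), with a median of -0.36. Both the ligand BMP2 and the usual targets were among those that fell. ID2, an inhibitor of basic helix-loop-helix factors, had 4871, 4509.9 and 4306 normalised counts in the GFP libraries and 703 and 673 in the Oct4 libraries, a log2 change of -2.73 (SE 0.07; limma adjusted p = 7.14e-13). ID1 had 1846, 2163 and 2120.1 in GFP and 552 and 537 in Oct4 (-1.90, SE 0.09). SMAD6 had 5561, 6028 and 6115 in GFP and 1975 and 1668 in Oct4 (-1.70, SE 0.08), and BMP2 1175, 1353 and 1278 in GFP and 439 and 351 in Oct4 (-1.69, SE 0.11). In these 4 genes both Oct4 libraries lay below all GFP libraries, as they did in 27.4% of all genes tested. The risers were other parts of the pathway. GDF6, another BMP ligand, had 16.9, 22.3 and 9.72 in GFP and 136 and 81.3 in Oct4, the receptor gene BMPR1B 15.9, 18.2 and 7.78 in GFP and 91.7 and 63.0 in Oct4, and FSTL1, which encodes a secreted follistatin-like protein that can bind BMPs, 9598, 11809 and 11613 in GFP and 28354 and 29208 in Oct4. CHRD, the BMP antagonist chordin, was called (2.07; 2.96 without GFP replicate 1, 1.41 without GFP replicate 3), but its call ended without GFP replicate 3 or either Oct4 library (limma adjusted p = 0.0533, 0.0533 and 0.109). Set against the other lines, ID1 was above the Sox2 line (1.31) and below the Klf4 line (-2.94), and ID2 was below the Klf4 line (-2.19) and not called against the Sox2 line (0.20, limma adjusted p = 0.0659).

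**Figure D3:**
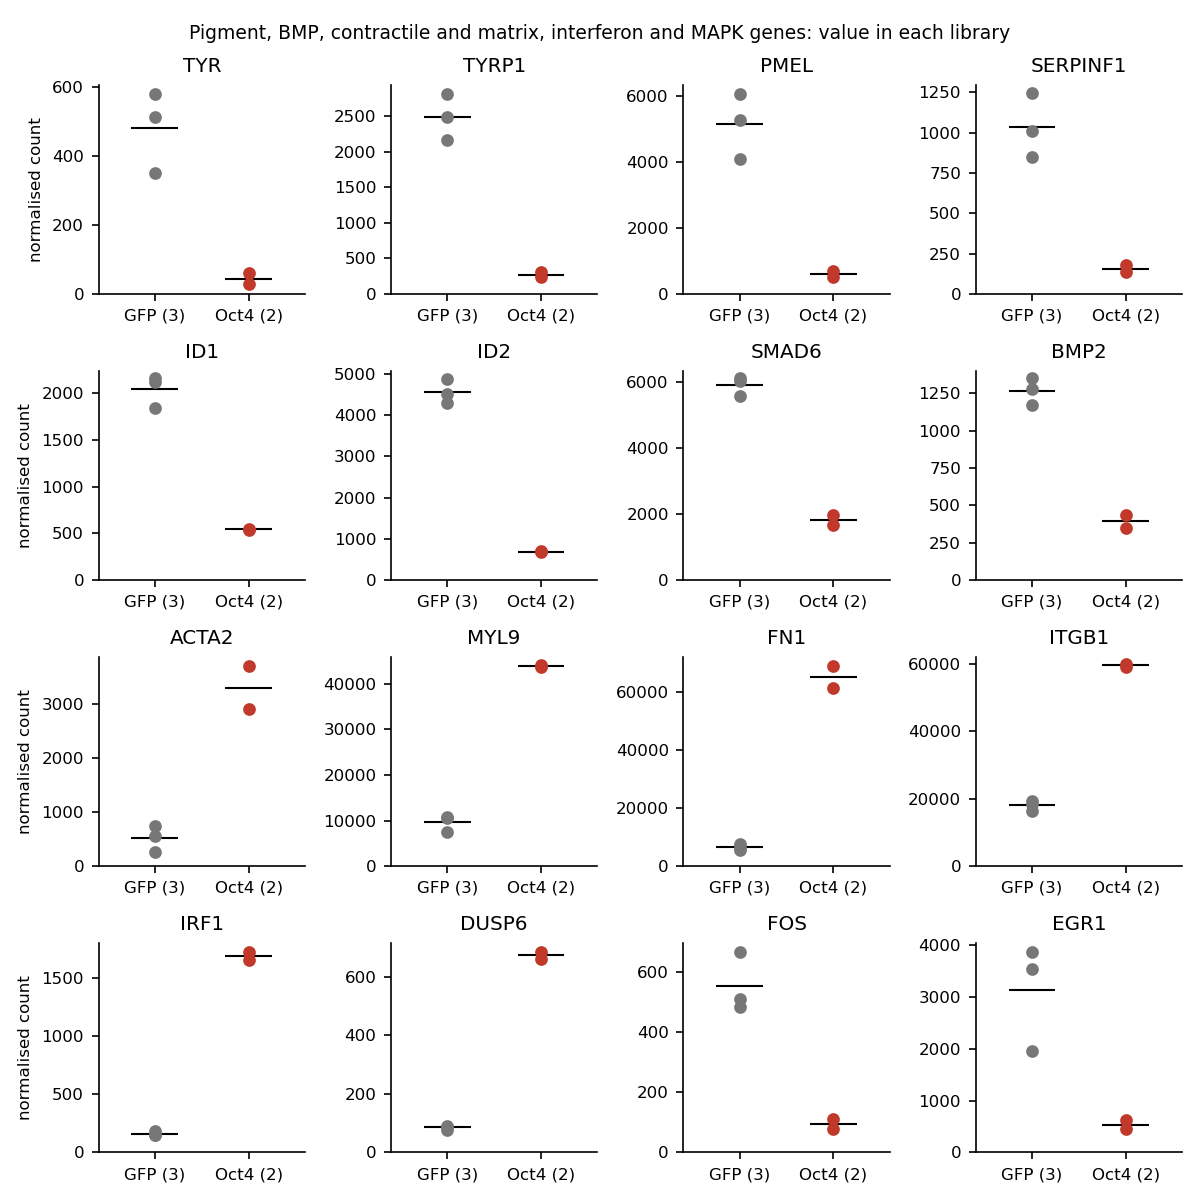
Normalised counts (y axis, from 0) of 16 genes in the 3 GFP libraries (grey) and the 2 Oct4 libraries (red), with bars for the group mean. The pigment genes, SERPINF1, the BMP genes, FOS and EGR1 are lower in both Oct4 libraries, for example ID2 at 703 and 673 against 4306 to 4871, and ACTA2, MYL9, FN1, ITGB1, IRF1 and DUSP6 are higher in both.

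Genes of the TGF-beta list more often rose than fell. Of 25 tested, 12 rose (48.0%, against 20.1% of all genes) and 3 fell (12%, against 17.2%), with a median of 0.40. INHBA, which encodes the activin A subunit, had 36.7, 76.9 and 28.2 in GFP and 209 and 264 in Oct4 (2.42, SE 0.31). PMEPA1, a target and feedback inhibitor of TGF-beta, had 2718, 3759 and 3372 in GFP and 9174 and 7093 in Oct4 (1.31). LTBP1, which holds latent TGF-beta in the matrix, rose by 1.03. The type I receptor gene ACVR1 had 758, 751 and 766 in GFP and 1579 and 1529 in Oct4 (1.03). ACVR1 is counted in this list, but its receptor signals mainly through the BMP factors SMAD1, SMAD5 and SMAD9. The co-receptor gene TGFBR3 fell from 2533, 1709.7 and 1969 to 569 and 453 (-2.01), and the inhibitors SMAD7 (-0.64) and TGIF1 (-0.40) fell less.

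Contractile genes are classic targets of serum response factor (SRF) and its MRTF coactivators, which respond to actin tension. Of 28 tested, 17 rose (60.7%, against 20.1% of all genes) and 3 fell (10.7%, against 17.2%), with a median log2 change of 0.93. ACTA2, the smooth muscle actin of myofibroblasts, had 266, 752 and 567 normalised counts in the GFP libraries and 2902 and 3703 in the Oct4 libraries, a log2 change of 2.76 (SE 0.28; limma adjusted p = 9.84e-07) and 2.33 without GFP replicate 1, the lowest GFP library. MYL9, a myosin light chain of non-muscle and smooth muscle contraction, had 7428, 10778 and 10622 in GFP and 44063 and 43759 in Oct4 (2.21, SE 0.12). LMOD1, an actin nucleator, had 168, 277 and 257 in GFP and 786 and 932 in Oct4 (1.90), and the actin-binding TAGLN 1999, 5105 and 3551 in GFP and 10657 and 10954 in Oct4 (1.71). Both Oct4 libraries exceeded all GFP libraries in each, as they did in 29.0% of all genes tested. The sarcomeric Z-disc gene MYOZ2 fell from 149, 258 and 215 to 56.9 and 66.4. The other falls, MRTFB (-0.27) and the myosin kinase MYLK (-0.23), did not pass without GFP replicate 3 or without Oct4 replicate 2, which left 1 called fall. Of 7 muscle markers 4 were tested. MYH3, an embryonic myosin, rose (1.68) and the cardiac troponin TNNT2 fell (-2.99). The list summed to 196, 77.9 and 157 in the GFP libraries and 283 and 231 in the Oct4 libraries, and the muscle-determining factors MYOD1 and MYOG had at most 3.43 in the latter. The part of the muscle markers in the contractile result was not tested. Against the Klf4 line the Oct4 line was higher in ACTA2 (3.66), MYL9 (3.62) and TAGLN (3.56). Against the Sox2 line it was higher in MYL9 (1.90), lower in LMOD1 (-0.73) and not called in TAGLN (-0.18, limma adjusted p = 0.657).

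The binding motif of SRF, the CArG box, was found in 1.14% of all promoters and in 7 of 24 promoters of the contractile list. It was in 5 of the 15 from members that rose and in 1 of the 3 from members that fell, that of MYLK, a share of 33.3% in each. ACTC1, the cardiac alpha-actin, is shown as a riser that holds it. It was chosen after its values were seen and had 118, 236 and 165 in GFP and 425 and 385 in Oct4 (1.28, SE 0.27). Its promoter lies at chr15:34795550-34795799 on the minus strand, with the CArG box in capitals 109 bases before the start.
ACTC1: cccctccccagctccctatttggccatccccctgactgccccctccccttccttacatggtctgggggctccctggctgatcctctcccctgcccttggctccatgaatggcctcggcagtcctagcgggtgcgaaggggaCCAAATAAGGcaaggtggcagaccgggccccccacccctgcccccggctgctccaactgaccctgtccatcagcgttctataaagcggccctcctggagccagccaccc

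Matrix and adhesion genes were divided. Of 34 tested matrix glycoproteins and crosslinkers, 14 rose (41.2%, beside 20.1% of all genes) and 8 fell (23.5%, beside 17.2%). The median was 0.16, and 16 rose without GFP replicate 1. FN1, fibronectin, had 5613, 7716 and 6460.4 normalised counts in the GFP libraries and 68911 and 61434 in the Oct4 libraries, 9.88-fold in means (log2 change 3.31, SE 0.17; limma adjusted p = 3.9e-10). LOX, the collagen and elastin crosslinking oxidase, had 1952, 3146 and 2789.8 in GFP and 10144 and 9876 in Oct4 (1.96), and ASPN, a small leucine-rich proteoglycan that binds TGF-beta, 3.97, 9.10 and 8.75 in GFP and 72.0 and 159 in Oct4 (3.78). FBLN2, fibulin 2 of basement membranes and elastic fibres, fell from 1481, 1807 and 1566 to 588 and 414 (-1.71). Of 31 tested collagens 12 rose (38.7%) and 4 fell (12.9%), and fewer rose without Oct4 replicate 1. COL10A1, the collagen of hypertrophic cartilage, had 18.9, 11.1 and 16.5 in GFP and 423 and 275 in Oct4 (4.40), and the fibrillar COL5A2 917, 1008 and 973 in GFP and 5519 and 5822 in Oct4 (2.55). The falls included COL8A2 (-1.77), COL9A2 (-1.34) and the basement membrane collagen COL18A1, source of endostatin, from 31033, 46466 and 43816 to 21719.8 and 19459 (-0.95). Among 27 tested proteases and inhibitors, 7 rose (25.9%) and 10 fell (37.0%), and 4 rose with no filter or with only the 5 compared libraries. TIMP3, the metalloprotease inhibitor of Bruch's membrane, fell from 34034, 33555 and 35718 to 13974 and 14799 (-1.26).

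Of 28 tested integrins and laminins, 11 rose (39.3%, beside 20.1% of all genes) and 5 fell (17.9%, beside 17.2%). The risers named here are partners that bind fibronectin: ITGB1 had 16262, 19477 and 18479 in GFP and 59881 and 59148 in Oct4 (1.72, SE 0.10), ITGB3 169.8, 273 and 314 in GFP and 1323 and 1333 in Oct4 (2.44), and ITGA4 128, 173 and 170.1 in GFP and 611 and 390.3 in Oct4 (1.64). The laminin-binding chains of hemidesmosomes fell, ITGB4 from 11999.9, 13596 and 15016 to 4788 and 4918 (-1.47) and ITGA6 (-1.12), together with the laminin chain LAMA3 (-0.79) and ITGB8 (-1.23). ITGA2 was called higher (1.64), but not without Oct4 replicate 1 (limma adjusted p = 0.102). Of 21 tested keratins 0 rose, beside 20.1% of all genes, and 9 fell (42.9%, beside 17.2%), with a median of -0.74. Without GFP replicate 1, 1 rose and 10 fell, and 1 was higher without GFP replicate 3. At an unadjusted limma p under 0.05, 1 was higher, and by edgeR or DESeq2 0. KRT38, a hair keratin, had 995, 1318 and 1362 in GFP and 73.2 and 144 in Oct4 (-3.55). Keratins have close family copies, so their values are uncertain. Of 33 tested EMT regulators and junction genes, 7 rose and 7 fell, 21.2% each way, beside 20.1% and 17.2% of all genes. CDH11, a mesenchymal cadherin, rose from 2105, 2319 and 2412 to 8626 and 7088 (1.78), and the tight junction genes CLDN11 (2.92) and TJP1 (1.02) rose. The epithelial factor ELF3 fell from 111, 70.8 and 76.8 to 13.9 and 12.6 (-2.59). S100A4, a mesenchymal marker, fell as well, in the opposite direction to CDH11, and ranked next to ELF3 among the falls of the list.

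Guidance receptors included some of the largest rises at readable levels. NRP1 and NRP2 encode the neuropilins, co-receptors for semaphorins and VEGF. NRP1 had 275, 241 and 251 in the GFP libraries and 3565 and 3280.2 in the Oct4 libraries, a log2 change of 3.74 (SE 0.12; limma adjusted p = 3.03e-12). NRP2 had 55.6, 90.0 and 78.7 in GFP and 1974 and 1699.6 in Oct4 (4.62, SE 0.22). The ephrin receptor EPHB3 had 35.8, 20.2 and 9.72 in GFP and 179 and 196 in Oct4 (3.21). Among the semaphorin ligand genes that fell, SEMA3B went from 9991, 11317 and 11629 to 3189 and 3155 (-1.79) and SEMA3D from 259, 318 and 351 to 56.9 and 101 (-2.0), while SEMA4A changed by -1.58. Over the whole list of 51 tested, 11 rose and 13 fell, shares of 21.6% and 25.5% beside 20.1% and 17.2% of all genes. UNC5A was called at 2.76 (3.82 without GFP replicate 1 and 1.83 without GFP replicate 3), but not with edgeR or DESeq2 or without GFP replicate 2 or 3 or either Oct4 library. NTN1 (-1.45) was not called without Oct4 replicate 1 (limma adjusted p = 0.123). Of 4 tested neuron and glia markers 2 were called lower (3 with edgeR, 1 with DESeq2 and 1 without GFP replicate 1), and 0 rose by limma, edgeR, DESeq2 or an unadjusted limma p under 0.05. TUBB3, neuronal tubulin, fell from 334, 331 and 307 to 53.4 and 43.5 (-2.72), and the list summed to 2413 to 2973 in the GFP libraries and 2097 and 2337 in the Oct4 libraries. NRP1 was also 4.89 above the Sox2 line and 4.60 above the Klf4 line on the log2 scale.

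Angiogenic genes moved in both directions. Of 24 tested, 8 rose (33.3%, beside 20.1% of all genes) and 5 fell (20.8%, beside 17.2%), and fewer fell without Oct4 replicate 2. PGF, the placental growth factor, had 52.6, 4.05 and 2.92 in GFP and 129 and 168 in Oct4 (3.86). Its GFP level came mainly from replicate 1. The change was 5.06 without that library, 3.17 without GFP replicate 3 and not called without Oct4 replicate 2 (limma adjusted p = 0.0548) or with DESeq2. IGFBP7, a secreted vascular matrix protein, rose from 18774, 24871 and 20899 to 48975 and 46181 (1.15). PDGFD (-1.81) and ANGPTL2 (-1.66), both secreted factors, and VEGFA (-0.72), the main vascular growth factor made by RPE, fell. VEGFA had 3945, 5312 and 4889.5 in GFP and 2927 and 2766 in Oct4. Of 4 tested endothelial markers, KDR, a VEGF receptor, fell. Leaving out GFP replicate 1, 1 of the markers was called higher and 1 lower.

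Growth factor signalling through RAS and MAPK switches on immediate early genes within minutes, and feedback inhibitors such as the dual-specificity phosphatases follow. Of 36 tested genes of both kinds, 12 rose (33.3%, beside 20.1% of all genes) and 17 fell (47.2%, beside 17.2%), with a median of -0.32. Among feedback genes and ETS targets, DUSP6, the ERK phosphatase, had 87.4, 91.0 and 77.8 normalised counts in the GFP libraries and 662 and 686 in the Oct4 libraries, a log2 change of 2.97 (SE 0.13; limma adjusted p = 8.62e-11). PHLDA1 had 165, 112 and 116 in GFP and 2152 and 1883 in Oct4 (3.95), the ETS factor ETV1 297, 374 and 374 in GFP and 1484 and 1998 in Oct4 (2.31), and the RAS inhibitor SPRED1 rose by 1.42. Among immediate early transcription factors, FOS had 484, 511 and 668 in GFP and 77.8 and 111 in Oct4 (-2.55), EGR1 1963, 3539.7 and 3868 in GFP and 447 and 617 in Oct4 (-2.51) and FOSB 95.3, 105 and 92.3 in GFP and 26.7 and 20.6 in Oct4 (-2.01). The phosphatase DUSP2, an immediate early gene itself, fell (-1.80). Of 24 tested EGF and FGF ligands and receptors, 5 rose (20.8%) and 7 fell (29.2%). The counts of risers were 8 without GFP replicate 1 and 3 without Oct4 replicate 2. FGF1 had 10.9, 2.02 and 0.97 in GFP and 114 and 97.3 in Oct4 (4.68; 5.44 without GFP replicate 1) and FGF5 rose from 325, 411 and 453 to 995 and 1026 (1.36). ERBB4, a neuregulin receptor, fell from 2705, 3224 and 3536 to 894 and 1123 (-1.65) and FGF18 from 183, 152 and 151 to 48.8 and 24.0 (-2.20).

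Interferon-stimulated genes answer to STAT and IRF factors through the interferon-stimulated response element. Of 38 tested, 22 rose and 0 fell (57.9% against 20.1% higher among all genes; median 0.85). At an unadjusted limma p under 0.05, 1 was lower, and by edgeR or DESeq2 0. Without GFP replicate 1, 24 rose and 1 fell. IRF1, a transcription factor of the response, had 183, 152 and 148 normalised counts in the GFP libraries and 1719 and 1648 in the Oct4 libraries, 10.5-fold in means (log2 change 3.39, SE 0.11; limma adjusted p = 3.07e-12). BST2, the membrane protein tetherin, had 14.9, 7.08 and 5.83 in GFP and 51.1 and 65.2 in Oct4 (2.62), and SAMD9L, an antiviral factor, 4.97, 6.07 and 13.6 in GFP and 44.1 and 41.2 in Oct4 (2.36). IFI44L was called at 2.13, and at 2.73 without GFP replicate 1, but not with edgeR or DESeq2, and not without GFP replicate 2 or 3 or either Oct4 library. IRF1 stood 3.66 above the Sox2 line and 1.92 above the Klf4 line on the log2 scale. Of 2 tested blood cell markers 0 were called by limma, edgeR or DESeq2, and 1 was lower at an unadjusted limma p under 0.05. When GFP replicate 1 was left out, limma called 1 lower. The list summed to 185 to 230.4 in the GFP libraries and 101 and 96.1 in the Oct4 libraries.

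The core of the response element, searched as GAAA, any 2 bases and GAAA on both strands, was found in 3.07% of all promoters and in 18 of 32 promoters of the list. It was in 11 of the 19 promoters of members that rose, and in 4.79% of 856 promoters of all genes called at least 2-fold higher against 2.28% of 6832 of genes not called. ISG15 and IFIT3 are shown as risers whose promoters hold 2 copies of it, and they were chosen after their values were seen. ISG15, a ubiquitin-like protein, had 27.8, 40.5 and 44.7 in GFP and 94.1 and 90.4 in Oct4 (1.30, SE 0.30), and IFIT3, an RNA-binding antiviral protein, 209, 262 and 296 in GFP and 495 and 445 in Oct4 (0.89, SE 0.17). In ISG15 (chr1:1013247-1013496, plus strand) the copies overlap, beginning 113 and 107 bases before the start. In IFIT3 (chr10:89327747-89327996, plus strand) they lie apart, 156 and 122 bases before it, on the other strand.
ISG15: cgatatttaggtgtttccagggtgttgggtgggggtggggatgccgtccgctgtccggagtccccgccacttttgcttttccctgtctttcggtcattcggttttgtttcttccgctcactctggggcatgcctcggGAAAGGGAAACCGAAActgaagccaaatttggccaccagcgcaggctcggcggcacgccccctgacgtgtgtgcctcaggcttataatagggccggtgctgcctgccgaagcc
IFIT3: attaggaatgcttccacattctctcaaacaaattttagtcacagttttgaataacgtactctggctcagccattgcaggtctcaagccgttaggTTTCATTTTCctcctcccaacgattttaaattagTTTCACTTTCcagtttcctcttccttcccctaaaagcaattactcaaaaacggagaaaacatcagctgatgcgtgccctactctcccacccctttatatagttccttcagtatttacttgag

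Of 25 tested chemokines and interleukins, 8 rose (32%, beside 20.1% of all genes) and 6 fell (24%, beside 17.2%). Without GFP replicate 1, 12 rose and 5 fell. Without Oct4 replicate 1, 5 rose and 3 fell. IL15, a lymphocyte growth factor, rose from 138, 111 and 132 to 288 and 312 (1.24), and the interleukin 1 receptor gene IL1R1 from 21.9, 16.2 and 16.5 to 54.6 and 81.3 (1.83). IL7R had 15.9, 0 and 0.97 in GFP and 79.0 and 75.5 in Oct4 (4.60; 5.80 without GFP replicate 1 and 3.76 without GFP replicate 2). The interleukin 1 family members IL33 (-1.73) and IL18 (-0.97) fell, IL18 from 6332, 8115 and 7540.4 to 3345 and 4123. CCL2 was called lower (-1.03), but was -0.55 and not called without GFP replicate 1 (limma adjusted p = 0.0571), and its call also ended without either Oct4 library. Of 16 tested complement genes 2 rose (12.5%) and 4 fell (25%). The count that rose was 1 without GFP replicate 2 or 3 or Oct4 replicate 1. The chaperone and complement inhibitor CLU rose from 6493, 6509 and 7267 to 20356 and 17945 (1.50). The classical pathway proteases C1R (-1.09) and C1S (-1.21) and VTN (-1.29), the adhesive plasma protein vitronectin, fell.

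Sterol genes are driven by SREBF2, which cells activate when membrane cholesterol is low. Of 29 tested genes of cholesterol synthesis and uptake, 20 rose (69.0%, against 20.1% of all genes) and 3 fell (10.3%, against 17.2%), with a median of 0.55. SC5D, a late enzyme of the pathway, had 1089, 1193 and 1193 normalised counts in the GFP libraries and 2541 and 2354 in the Oct4 libraries (1.08, SE 0.08; limma adjusted p = 3.17e-08), and SREBF2 itself 8389, 9067 and 9658 in GFP and 18468 and 18047 in Oct4 (1.02). ABCA1, which exports cholesterol, rose as well, from 584, 520.0 and 581 to 949 and 1296 (0.98). The members that fell included MYLIP (-0.55), a ubiquitin ligase, and SREBF1 (-0.35), the factor of fatty acid synthesis. In the genes named here the groups did not overlap, as in 29.0% of all genes on the higher side and 27.4% on the lower. A strict sterol element (ATCACC followed by CCAC, on either strand) was found in 10 of 27305 promoters, and SREBF2 is the 1 list member among them. Its promoter (chr22:41832855-41833104, plus strand) is shown with the element in capitals, 134 bases before the start. The same window holds the octamer, in lower case.
SREBF2: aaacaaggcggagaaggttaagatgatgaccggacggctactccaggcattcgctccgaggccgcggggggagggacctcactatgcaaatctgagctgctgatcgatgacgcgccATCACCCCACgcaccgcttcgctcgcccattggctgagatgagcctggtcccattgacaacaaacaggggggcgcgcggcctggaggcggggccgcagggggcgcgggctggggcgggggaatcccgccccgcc

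Cytosolic ribosomal protein genes shifted together by small amounts. Of 78 tested, 66 fell and 0 rose (84.6% lower against 17.2% of all genes), with a median log2 change of -0.34. The number higher was also 0 by edgeR, by DESeq2 and at an unadjusted limma p under 0.05. Without GFP replicate 1, 71 fell, and without Oct4 replicate 1, 41 did. Their summed share of all normalised counts was 4.24%, 4.46% and 4.23% in the GFP libraries and 3.16% and 3.36% in the Oct4 libraries. RPL13A had 39572, 46046 and 42402 in GFP and 29845 and 29811 in Oct4 (-0.51, SE 0.08; limma adjusted p = 0.000113), RPS2 17323, 20716 and 20167 in GFP and 12781 and 13448 in Oct4 (-0.56), and RPLP2 6209, 6503 and 6248 in GFP and 4187 and 4491 in Oct4 (-0.54). RPS10, at a low level, was called at -0.81, but that call ended when GFP replicate 1, GFP replicate 2 or either Oct4 library was left out. Ribosomal protein genes have many processed copies, so single values are uncertain. With TMM scaling over the tested genes, which moved the library factors by 0.992 to 1.02 times, 63 fell. The share was 2.62% and 2.76% in the Sox2 line and 3.63% and 3.31% in the Klf4 line.

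**Figure D4:**
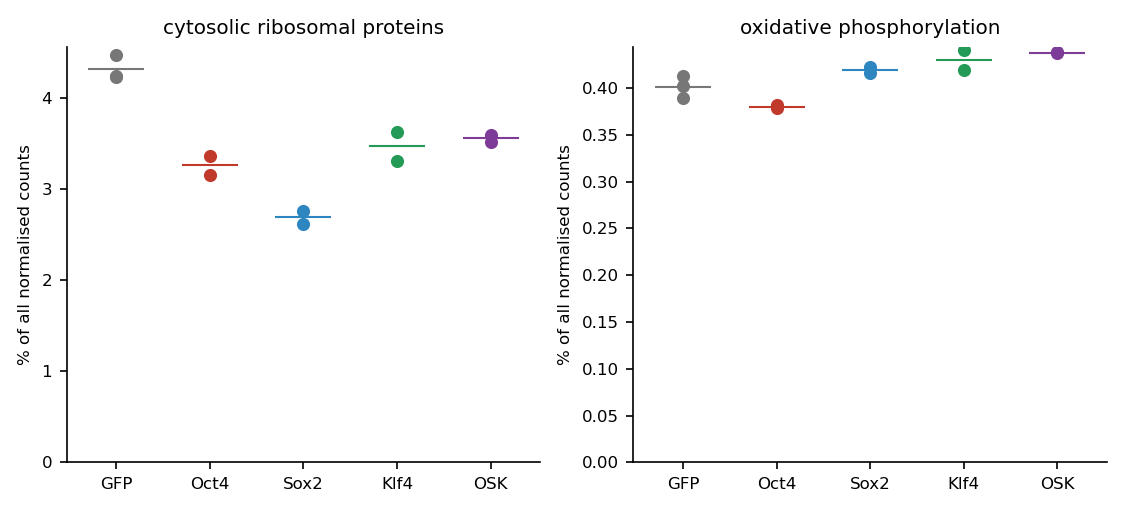
Share of all normalised counts (%, y axis from 0) taken by 78 cytosolic ribosomal protein genes (left) and 76 oxidative phosphorylation genes (right) in each of the 11 libraries, by line, with bars for group means. The ribosomal share is 4.23% to 4.46% in GFP and 3.16% and 3.36% in Oct4, and the oxidative phosphorylation share is 0.389% to 0.413% in GFP and 0.379% and 0.382% in Oct4.

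Nuclear-encoded subunits of oxidative phosphorylation mostly did not pass. Of 76 tested, 13 rose (17.1%, beside 20.1% of all genes), 8 fell (10.5%, beside 17.2%) and 55 were not called (median 0.01). Without GFP replicate 2, 4 fell, and the count that fell was also smaller without Oct4 replicate 2. SDHA, the flavoprotein of complex II, had 197, 189 and 216 in GFP and 382 and 349 in Oct4 (0.86), and NDUFB10, a complex I subunit, 765, 794 and 764 in GFP and 569 and 508 in Oct4 (-0.52). Proteasome subunits gave 8 higher (25.8%, beside 20.1% of all genes) and 1 lower (3.23%, beside 17.2%) of 31. The risers were led by PSMA5, from 1080.4, 1093 and 1088 to 1744 and 1782 (0.70), and the regulatory subunit PSMD3 (0.66). That count was 5 without GFP replicate 3, 4 without Oct4 replicate 1 and 3 without Oct4 replicate 2, and 0 fell without either Oct4 library. Heat shock and chaperone genes fell in 16 of 26 (61.5%, against 17.2% of all genes) and rose in 3 (11.5%, against 20.1%), with a median of -0.28. The stress-inducible HSPA1B had 1021, 997 and 1007 in GFP and 569 and 508 in Oct4 (-0.91), HSPA1A 802, 823 and 736 in GFP and 432 and 434 in Oct4 (-0.86), and the co-chaperone DNAJB1 fell (-0.80). HSPA1A and HSPA1B are near-identical copies, so their separate values are uncertain. HSPB1, a small heat shock protein of actin filaments, rose from 1644, 2895 and 2588 to 4617 and 4324 (0.95).

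Targets of ATF4, the factor of the amino acid response, fell in 14 of 30 (46.7%, against 17.2% of all genes) and rose in 4 (13.3%, against 20.1%), with a median of -0.24. SLC3A2 and SLC7A5 encode the chains of the LAT1 amino acid exchanger. SLC3A2 had 12339.5, 13845 and 14026 in GFP and 4068 and 4489 in Oct4 (-1.65, SE 0.08; limma adjusted p = 2.01e-10), and SLC7A5 7843, 10549 and 10507 in GFP and 3566 and 3250.5 in Oct4 (-1.49). DDIT4, an inhibitor of mTORC1, had 609, 655 and 615 in GFP and 221 and 206 in Oct4 (-1.55), and CEBPB 2059, 2142 and 2049 in GFP and 916 and 731 in Oct4 (-1.35). Other transporters rose, the neutral amino acid carrier SLC1A4 from 123, 113 and 121 to 329 and 302 (1.40) and the cationic carrier SLC7A1 by 0.66. Of 37 tested glycolysis and hypoxia genes 8 rose (21.6%, beside 20.1% of all genes) and 16 fell (43.2%, beside 17.2%), with a median of -0.20. Without Oct4 replicate 1, 9 fell, and without Oct4 replicate 2, 5 rose. The hypoxia target ADM, the peptide adrenomedullin, had 519, 406 and 440.4 in GFP and 2029 and 1923 in Oct4 (2.12), and PFKFB3, which makes the activator of phosphofructokinase, 809, 1144 and 966 in GFP and 2609 and 2583 in Oct4 (1.43). ALDOA, aldolase, fell from 939, 937 and 954 to 584 and 611 (-0.66), and EPAS1, the hypoxia factor HIF-2 alpha, from 7257, 6272 and 6288 to 3308 and 3402 (-0.97). Of 9 tested metallothioneins and zinc genes, the zinc and cadmium importer SLC39A8 rose (1.05), the zinc exporter SLC30A1 fell (-0.32) and 7 were not called. That is 11.1% each way, below the 20.1% and 17.2% of all genes.

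Oxidative defence genes are those the design text of the series names as its subject. Of 80 tested oxidative defence genes in the Oct4 line, 17 rose (21.3%, beside 20.1% of all genes), 24 fell (30.0%, beside 17.2%) and 39 were not called (median -0.11). GSTA4, the transferase named in the series title, had 88.4, 127 and 125 in the GFP libraries and 183 and 192 in the Oct4 libraries (0.74, SE 0.17; limma adjusted p = 0.003; 0.57 without GFP replicate 1). Both Oct4 values lay above all GFP values, as in 29.0% of all genes tested. GCLM, the modifier subunit of the enzyme that starts glutathione synthesis, had 221, 209 and 223 in GFP and 771 and 797 in Oct4 (1.84), and GSR, which regenerates glutathione, 1017, 1154 and 1082 in GFP and 2854 and 2769 in Oct4 (1.38). The methionine sulfoxide reductase MSRB3 (1.43) and the peroxiredoxin PRDX4 (1.0) rose too. GPX3, the secreted glutathione peroxidase, fell from 25404, 22825 and 23548 to 7229.5 and 7694 (-1.68) and ALDH1A3, a retinal dehydrogenase, from 24240.1, 25865 and 27077 to 9453 and 9983 (-1.40). ALDH1A1 (-1.64) was not called without Oct4 replicate 1 (limma adjusted p = 0.0709), nor SRXN1 (-0.92), the sulfiredoxin, without Oct4 replicate 2 (limma adjusted p = 0.105).

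Most cell cycle genes did not pass the test, as was true of all genes tested, of which 37.3% were called. Of 47 proliferation genes, 12 rose (25.5%, beside 20.1% of all genes) and 5 fell (10.6%, beside 17.2%). The other 30 were not called, and the median was 0.18. The number that rose was 7 with DESeq2 and 6 with only the compared libraries, and 3 fell without Oct4 replicate 1. The mitotic genes CENPE, a kinetochore motor, with 69.5, 65.8 and 57.4 in GFP and 174 and 182 in Oct4 (1.46), AURKA, a spindle kinase (1.20), and CCNA2, cyclin A (1.11), rose. The replication helicase subunits MCM7 (-0.57) and MCM4 (-0.54) fell, MCM7 from 2527, 2635 and 2554 to 1852 and 1622. CENPE was still below the Klf4 line (-1.03). CDKN2C, an inhibitor of CDK4 and CDK6, had 55.6, 43.5 and 57.4 in GFP and 95.2 and 98.4 in Oct4 (0.89). Of 31 p53 targets and cell cycle inhibitors, 5 rose (16.1%) and 12 fell (38.7%), and fewer fell without either Oct4 library. TP53I3, a p53-induced oxidoreductase, rose from 207, 270.1 and 221 to 706 and 546 (1.42) and CCND1, cyclin D1, from 4018, 5737 and 5409 to 8154 and 7122 (0.61). PHLDA3, an inhibitor of AKT, fell from 3670.3, 4229.7 and 4292 to 2588 and 2462 (-0.68).

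In the Wnt pathway 10 of 34 rose and 10 fell, 29.4% each way, beside 20.1% and 17.2% of all genes. Without Oct4 replicate 1, 5 rose, and without GFP replicate 2 or Oct4 replicate 2, 6 did. SFRP4, a secreted Wnt antagonist, had 218, 202 and 201 in the GFP libraries and 4109 and 3256 in the Oct4 libraries, a log2 change of 4.14 (SE 0.24; limma adjusted p = 1.94e-09), while its relative SFRP1 fell from 15041, 16557 and 17479 to 7128 and 7497 (-1.16). The receptor FZD5 rose (1.10), and the ligands WNT2B (-1.11) and WNT9A (-1.03) and the receptor FZD2 (-0.83) fell. In the Notch pathway 5 of 19 rose (26.3%) and 4 fell (21.1%). The ligand JAG1 rose from 379, 429.9 and 426 to 869 and 990.0 (1.17) and the target HEY1 from 21.9, 25.3 and 29.2 to 87.1 and 88.1 (1.75), while NOTCH1 fell from 852, 737 and 905 to 376 and 437 (-1.03) and the target HES1 (-0.78).

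**Figure D5:**
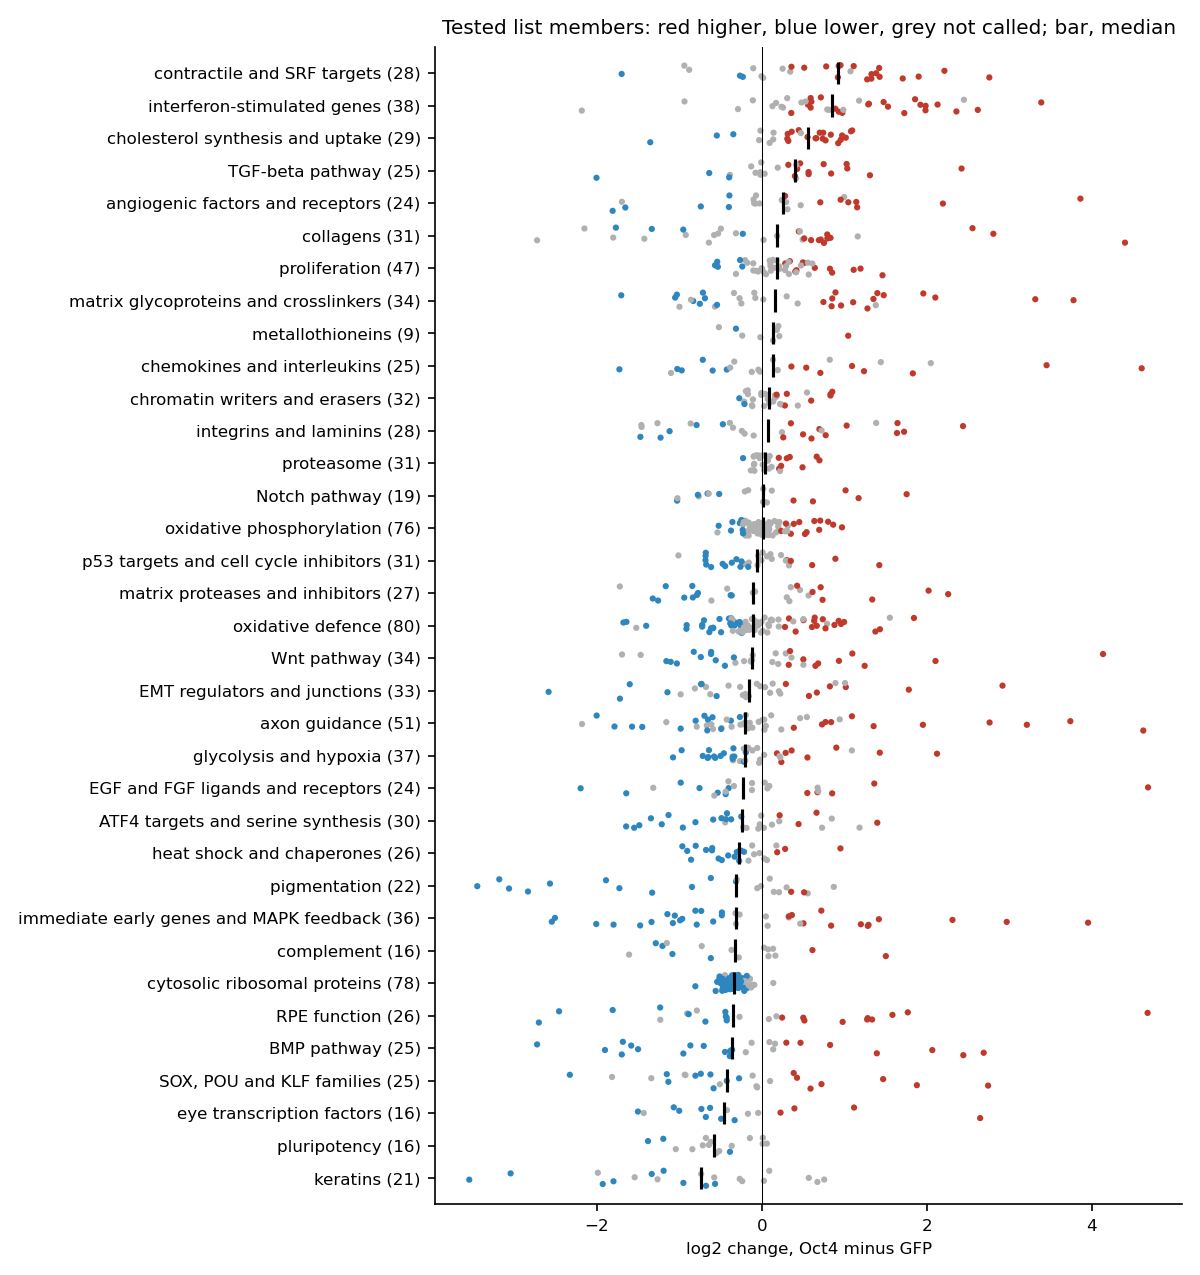
Log2 change between the Oct4 and GFP lines (x axis) for the tested members of the 35 gene lists (y axis, number tested in brackets), with points for genes, red called higher, blue called lower, grey not called, and black bars for list medians. Medians run from -0.74 for keratins to 0.93 for contractile genes, and the ribosomal protein genes form a narrow cluster around -0.34.

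To find what set the Oct4 line apart from the other single factors, it was tested directly against each. Against the Sox2 line 3380 genes were higher (18.0%) and 2903 lower (15.4%), and against the Klf4 line 4097 higher (21.8%) and 3760 lower (20.0%; limma). Genes above the GFP, Sox2 and Klf4 lines at once numbered 1462 (7.77%), and genes below all 3 lines 597 (3.17%). The second count was 358 without Oct4 replicate 2. The filter admitted 114 tested genes through the Oct4 libraries alone. These could enter only the first set, and how many did was not counted. The first set holds SUCNR1 and LRRC31, both of that kind, and BCO1. In the second set, GAS1, a hedgehog co-receptor, had 477, 550.3 and 661 in the GFP libraries and 135 and 136 in the Oct4 libraries, against means of 679 in the Sox2 line and 979.5 in the Klf4 line. SLITRK5, a neuronal transmembrane protein, had 159.9, 159.8 and 174 in GFP and 54.6 and 56.1 in Oct4, against 820.0 and 329.8. DCDC2, a doublecortin-domain protein of cilia, had 98.3, 108 and 101 in GFP and 18.6 and 30.9 in Oct4, against 176 and 573. The splicing regulator MBNL3 (-1.58 against GFP), the cytoskeletal adaptor SORBS2 (-1.87) and the cohesion factor DSCC1 (-1.47) completed the 6 named by rule. When the 3 factors were combined, the level of POU5F1 was lower than in the Oct4 line (OSK minus Oct4 -1.80), and FN1, MYL9 and IRF1 were lower too (-4.08, -4.06 and -2.12). NRP1 and CDH11 differed by smaller amounts (-0.59 and -0.15, the latter not called, limma adjusted p = 0.248).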

How the data were processed

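RNA-seq of polyA RNA was measured in 11 ARPE-19 libraries, of which 3 GFP and 2 Oct4 libraries are compared here. Reads were aligned with STAR 2.7.1a and counted with featureCounts 1.6.2 on GRCh38/hg38, per the submitters' processing notes. Those notes also name a mouse build. The annotation, strand setting and normalising tool are not given in the sources used here. The deposited values are normalised counts, a signal per gene that the authors obtained by dividing read counts by 1 factor per library and writing 2 decimals. Whole reads were recovered from them (15053300 to 19791775 per library). In GFP replicates 1 and 2, where 1 read is worth 0.993 and 1.01, all values up to 200 were whole within 0.0061. The compared libraries of a group differed by more than counting noise, so none was treated as a repeated deposit of another.

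Genes that reached 10 in 2 or more libraries were fitted on log2(value + 1) with limma 3.58.1 (trend, 1 mean per line, all 11 libraries sharing 1 spread) in R 4.3.3, with Benjamini-Hochberg adjustment over all 18828 and a threshold of 0.05. Fold changes on this scale understate the change of low genes. Summaries and figures used Python 3.11.15, pandas 2.3.3 and matplotlib 3.10.9. The fits were tested on simulated data for the comparison of Oct4 with GFP. Of 200 genes changed 1.5-fold (among 18171 tested), 2-fold (18161) or 4-fold (18169), limma recovered 57%, 70.5% and 80%, and 8.06%, 4.73% and 8.57% of its calls were false. The false share was thus above the threshold of 0.05 at 1.5-fold and 4-fold. In the data 37.3% of genes were called, far more than were changed here. The simulation also held no counterpart to the wide background of GFP replicate 1. These shares may therefore not hold for the real comparison. Alternatives were edgeR 4.0.16 and DESeq2 1.42.0 on recovered reads, TMM scaling, other filters and pseudocounts, a replicate block and leaving out each of the 5 compared libraries. The members and gene lists were chosen with earlier results of these data known. Genes were named by rule: the factors and GSTA4; the 12 largest called rises and falls with groups that do not overlap, a unique symbol and a mean of at least 50 in the higher group; up to 4 risers and 4 fallers per list by size; and up to 6 genes above and 6 below the GFP, Sox2 and Klf4 lines. Cell type markers and list members that were not called are named besides, with values. Some genes the rule names are not reported here. RefSeq promoters (GRCh38.p14) matched 12054 of the tested genes by symbol.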

Additional observations from a re-analysis of the deposited data

How the results depend on the processing

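The 7018 calls became 5759 with no filter, 5943 with DESeq2, 6012 with only the Oct4 and GFP libraries, 6408 with a mean of at least 50, 6774 with edgeR, 6894 with TMM scaling and 7105 with a pseudocount of 5. In alternatives chosen after seeing the data, 6945 were called without GFP replicate 1 and OSK replicate 1 together and 7351 with edgeR without GFP replicate 1. Leaving out 1 library gave 5126 to 7219. Replicate numbers are shared by only 2 GFP and Oct4 libraries, whose deviations correlated at 0.00911 and -0.00224. With 2 Oct4 libraries, whose deviations mirror each other, this cannot show whether same-numbered libraries shared a culture or batch. The replicate block gave 6072 calls. The 2073 changes of at least 2-fold became 1258 with a mean of at least 50. The 597 genes below all 3 lines became 375 with no filter and 358 to 707 without 1 library. That count was not run with only the Oct4 and GFP libraries. The cause of these moves was not tested. Of 272 named genes, calls ended in 40 without Oct4 replicate 1, 42 without Oct4 replicate 2, 28 with no filter, 25 with only the compared libraries, 21 under the block and 17 with DESeq2, and 0 reversed in any alternative run. Without 1 Oct4 library that group has 1 library, assumed to vary like the others. Depth limits genes under 50, where the median SE was 0.55.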
